A study of Mus musculus with 16 samples.

Results

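The dipeptidyl peptidase family was followed in mouse pancreatic islets after loss of Insm1, which encodes a zinc finger protein that regulates transcription in endocrine cells. Its 7 members were Dpp10, Dpp6, Dpp4, Fap, Dpp8, Dpp9 and Dpp7, out of 18193 genes measured. They were taken by name from the annotation of the array, on which 17 probe sets, each a group of short probes for 1 transcript, named 1 of these genes and no other. Each gene was represented by its brightest probe set over the 16 arrays, and the other probe sets are given beside it. The family was chosen by the signal of Dpp10, known to be higher in mutant islets, so the difference of Dpp10 between the groups is a description and is not tested here.

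There were 8 mutant and 8 control islet preparations, with 1 array each. The mutants had the genotype RIPcreER; Insm1flox/lacZ and the controls RIPcreER; Insm1flox/+, so both groups carried a floxed allele and a recombinase driven by an insulin promoter and activated by tamoxifen. Tamoxifen, 25 mg released over 21 days, was given to both groups at an age of 4 to 5 weeks, and the islets came from mice aged 8 to 12 weeks. The mice had mixed CBA/J, 129/ola and C57BL/6 background, and controls were matched by litter, per the series' design text. By these genotypes, control beta cells can have lost 1 copy of Insm1 as well, and the lacZ allele of the mutants is not limited to beta cells. The values are log2 signals, differences are mutant minus control on that scale, and every group mean is over n = 8 arrays. Precision is limited by this number of arrays.

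The enzymes of this family remove a dipeptide from the end of a peptide when proline or alanine comes next. Dpp4 sits on the cell surface and inactivates the incretin hormones GLP-1 and GIP, and its inhibitors are used to treat type 2 diabetes. Fap is its closest relative and also cuts within proteins, Dpp8 and Dpp9 work in the cytosol, and Dpp7 works in lysosomes and vesicles. Dpp6 and Dpp10 have the same fold but no enzyme activity, and they join Kv4 potassium channels as accessory subunits.

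Dpp10 and Dpp4 were the members with the widest differences between the groups, and the sequences just upstream of their start sites are shown for reference. They are credited to RefSeq on GRCm38.p6 and run from 250 bases before to 50 bases after the start that RefSeq gives. The capitals mark CANNTG, the E-box that basic helix-loop-helix factors such as Neurod1 bind, searched on both strands, which read the same for this motif. Dpp10 lies on the minus strand at chr1:124045510-124045809 and Dpp4 on the minus strand at chr2:62412182-62412481.
Dpp10: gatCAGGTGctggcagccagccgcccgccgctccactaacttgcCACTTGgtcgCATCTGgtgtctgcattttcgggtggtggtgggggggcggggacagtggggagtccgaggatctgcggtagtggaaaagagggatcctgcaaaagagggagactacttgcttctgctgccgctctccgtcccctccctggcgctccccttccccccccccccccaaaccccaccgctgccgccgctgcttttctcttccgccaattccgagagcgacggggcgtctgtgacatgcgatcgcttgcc
Dpp4: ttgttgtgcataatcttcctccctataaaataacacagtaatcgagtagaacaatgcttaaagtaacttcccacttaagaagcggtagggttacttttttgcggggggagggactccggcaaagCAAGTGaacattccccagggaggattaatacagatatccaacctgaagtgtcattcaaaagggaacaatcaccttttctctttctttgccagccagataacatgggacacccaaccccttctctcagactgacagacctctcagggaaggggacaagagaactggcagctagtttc
The window of Dpp10 held 3 E-boxes and that of Dpp4 held 1, while 72.3% of all 32851 windows of this length held at least 1. The mean over all windows was 1.39, and the window of Dpp7 also held 3. One of those of Dpp10 was CATCTG, and 17.2% of all windows held this word or its reverse complement CAGATG. The forkhead motif TGTTTAC, or GTAAACA on the other strand, was in neither window and in 3.65% of all. Promoter sequences were given for 6 of the 7 members. These matches describe letters only, since no binding was measured here.

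The preparations held the cells that the label names, with differences in what came along. Ins2 averaged 15.37 in mutants and 15.36 in controls, near the highest value of the data, 15.39. Of 8 measured beta-cell markers 6 were called lower in mutants, and the mean of the list lay between 11.78 and 12.12 in mutants and between 12.39 and 12.67 in controls. The mean of 7 alpha-cell markers was higher in mutants in 8 of 8 pairs of arrays with the same replicate number, and 2 of the 7 were called, both higher (4 with the replicate number as a block). Beside these marker counts, 4.1% of all genes were called higher and 4.66% lower, and with the block 7.88% higher and 9.71% lower. The mean of 13 acinar markers ran from 8.76 to 13.44 in mutants and from 11.82 to 13.87 in controls, and was lower in mutants in 8 of 8 pairs. Of these 13, 1 was called lower, and all 13 with the replicate block. Their summed signal, after turning log2 values back to a linear scale, ran from 7399 to 218457 in mutants and from 67304 to 272583 in controls, and none of the 13 lay below the lowest array median. Immune markers stood out on mutant replicates 1 and 3 and control replicate 1, with means of 9.33, 9.11 and 8.46, against 8.02 or less on the other 13 arrays. Insm1 itself read 10.71 to 11.30 in mutants and 10.94 to 11.60 in controls at its brighter probe set, a difference of −0.25 ± 0.11 (SE) that did not pass the test (limma, adjusted p = 0.182) and was 0.04 without pairs 1 to 3. The other Insm1 probe set differed by −0.05 ± 0.08 (SE, limma, adjusted p = 0.781 over all probe sets) and was lower in mutants in 4 of 8 pairs. The sources used here do not place the probes of Insm1 relative to the deleted part, so these values check nothing about the label.

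**Figure D1:**
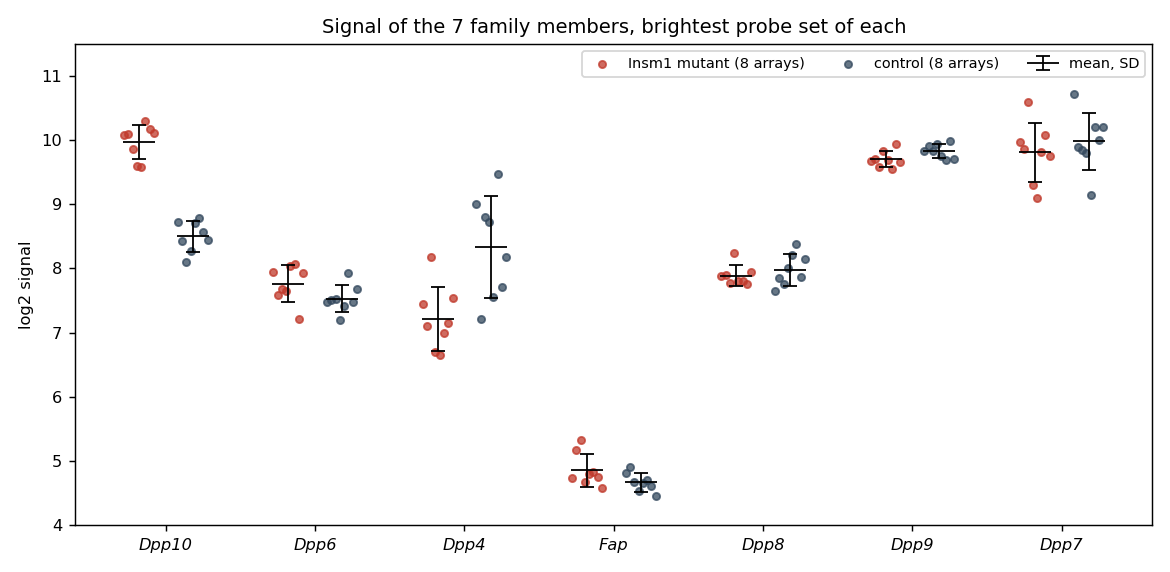
Log2 signal of the 7 members on each array, mutants in red to the left and controls in dark blue to the right of each gene name, with 8 points per group and bars for the mean and SD. The groups are apart for Dpp10 and overlap for the other 6 genes, with Dpp4 the widest in spread; heights of different genes are not comparable, because each probe set has its own response.

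Among the members without enzyme activity, Dpp10 was higher in every mutant preparation than in any control. Its signal had a lowest value of 9.59, a median of 10.08 and a highest value of 10.30 in mutants, against 8.10, 8.50 and 8.79 in controls. The groups did not overlap, with a gap between the lowest mutant and the highest control array. The means were 9.98 ± 0.26 (SD) in mutants and 8.50 ± 0.24 in controls, a difference of 1.47 ± 0.12 (SE) with a 95% interval of 1.22 to 1.72, or 2.77-fold. In the same-numbered pairs the difference ran from 0.88 to 1.76. By size of its positive difference Dpp10 ranked 30 of 18193 genes, and groups without overlap were seen for 2.29% of all genes. Nothing is read from either figure, because the gene was chosen for this difference. In bulk preparations, more cells that make Dpp10 and more Dpp10 RNA per cell cannot be told apart.

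The dimmer probe set of Dpp10 gave the same picture. It read 7.46, 7.68 and 8.17 (lowest, median, highest) in mutants and 6.33, 6.53 and 6.79 in controls, a difference of 1.20 ± 0.11 (SE), or 2.29-fold, and was higher in mutants in 8 of 8 pairs. Within the groups the signals of both probe sets moved together, with a Pearson correlation of 0.83 over the 8 mutant arrays and 0.88 over the 8 control arrays. At the brighter one the difference was 1.40 when pairs 1 to 3, which hold the arrays with high immune markers, were left out. With the alpha-cell marker mean in the fit it was 1.28. Within the groups, Dpp10 and the alpha-cell mean had r = 0.25 and rho = 0.38 over 8 mutant arrays (exact permutation p = 0.534 and 0.36) and r = 0.72 and rho = 0.74 over 8 control arrays (exact permutation p = 0.0459 and 0.0458). Adjusted over all 140 relations of members with marker lists, the p was 0.983 for r and 0.916 for rho in mutants, and 0.714 for r and 0.806 for rho in controls. Leaving out the 2 arrays farthest from the median alpha-cell mean gave r of 0.57 in mutants and 0.49 in controls. Other marker lists had r larger in size. In mutants these were −0.88 with the duct mean and −0.85 with the Schwann-cell and neuron mean. In controls it was −0.83 with the PP-cell mean (exact permutation, adjusted p = 0.398 for each). In the opposite group the same lists gave −0.01, 0.28 and −0.54. Over the 29 alternatives tried the Dpp10 difference lay between 1.28 and 1.55.

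Dpp6, the other accessory subunit of Kv4 channels, differed less and did not pass the test. Its signal had a lowest value of 7.21, a median of 7.80 and a highest value of 8.07 in mutants, against 7.20, 7.49 and 7.93 in controls. The groups overlapped, with 3 of 8 mutant arrays above the highest control, and the mutant was higher in 7 of 8 pairs. The difference was 0.24 ± 0.12 (SE, 95% interval −0.02 to 0.49, limma, adjusted p = 0.274 over all genes). The dimmer probe set differed by 0.33 ± 0.13 (adjusted p = 0.161 over all probe sets) and was also higher in 7 of 8 pairs. The exception at both was pair 7, in which mutant replicate 7 had the lowest value of its group.

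Dpp4, the incretin-degrading enzyme, fell in mutant islets and was the member with the largest spread. Its signal had a lowest value of 6.65, a median of 7.13 and a highest value of 8.18 in mutants, against 7.20, 8.45 and 9.47 in controls. The groups overlapped, although 5 of 8 mutant arrays lay below the lowest control, and the mutant was lower in 8 of 8 pairs, by 0.11 in the closest pair and 2.48 in the widest. The means were 7.22 ± 0.50 (SD) in mutants and 8.33 ± 0.79 in controls, a difference of −1.12 ± 0.30 (SE, 95% interval −1.75 to −0.48) that passed the test (limma, adjusted p = 0.0258, and 0.00739 with the replicate number as a block). This corresponds to 2.17-fold lower signal. Of the 6 members other than Dpp10 this was the single one called, against 8.76% of all genes called, 4.1% higher and 4.66% lower.

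The 4 probe sets of Dpp4 pointed the same way with different sizes. Tested among all probe sets, the one with suffix _x_at, which marks possible cross-hybridisation, fell by 1.33 ± 0.33 (adjusted p = 0.0206). The remaining pair gave −0.83 ± 0.31 (adjusted p = 0.125, or 0.0283 under the replicate block) and −0.27 ± 0.17 (adjusted p = 0.427). Between any of the 4, the Pearson correlation was 0.84 to 0.96 over the mutant arrays and 0.84 to 0.99 over the control arrays. The controls with the highest Dpp4 signal at the brightest probe set were replicates 6, 1, 3 and 4.

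The call of Dpp4 depended on single arrays and on how acinar markers were treated. In fits with no pairing term, it was lost without mutant replicate 4 or 5 or without control replicate 3 or 4. The differences were then −1.06 to −1.03 with adjusted p = 0.0512 to 0.0526, while without any other array the call held. Leaving out arrays was not tried with the replicate block. It held without pairs 1 to 3 (−1.33, adjusted p = 0.0433). Including the acinar marker mean gave −1.11 (adjusted p = 0.0606), that mean together with the replicate block gave −0.36 (adjusted p = 0.685), and the alpha-cell marker mean gave −0.77 (adjusted p = 0.314). The block with the acinar and immune means gave −0.23 (adjusted p = 0.979). In 8 of 8 pairs the mutant had the lower acinar mean and the higher alpha-cell mean. Both means thus went partly with genotype, although their ranges overlapped between the groups. For any gene, a fit that includes them can therefore take up part of the genotype difference, and how much was not tested. The mean of the 4 Dpp4 probe sets differed by −0.89 (adjusted p = 0.0527). Within the groups, Dpp4 and the acinar mean had a Pearson r of 0.37 over 8 mutant arrays (rho = 0.45) and −0.43 over 8 control arrays (rho = −0.38), with two-sided exact permutation p = 0.372 and 0.273 for r and 0.267 and 0.36 for rho. Adjusted over the same 140 relations, these were 0.983 for both r and 0.916 for both rho, and 0 of the 140 passed. Leaving out the 2 arrays farthest from the median acinar mean gave r of 0.08 in mutants and −0.28 in controls. Across the 8 pairs, the Dpp4 difference and the acinar difference had r = 0.61 (exact permutation p = 0.105, adjusted p = 0.812 over 20 relations) and rho = 0.52 (exact permutation p = 0.197, adjusted p = 0.655), and r was 0.64 without the 2 farthest pairs. Duct markers, of which Krt19 was called lower, had a mean of 8.47 to 8.67 in mutants and 8.59 to 8.86 in controls. Dpp4 and the duct mean had r = −0.24 and rho = −0.21 over 8 mutant arrays (exact permutation p = 0.566 and 0.619) and r = 0.05 and rho of 0 over 8 control arrays (exact permutation p = 0.905 and 1). Adjusted over the 140 relations, every one of these p-values was 0.941 or more, and r without the 2 farthest arrays was −0.16 in mutants and −0.25 in controls. Other lists had larger values with Dpp4. With the alpha-cell mean r was −0.63 in mutants and −0.04 in controls (exact permutation, adjusted p = 0.945 and 0.988). It was 0.17 and 0.74 with the beta-cell mean (0.983 and 0.714) and 0.63 and 0.49 with the immune mean (0.945 and 0.956). With the PP-cell mean rho was −0.86 in mutants and 0.07 in controls (0.75 and 0.998).

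**Figure D2:**
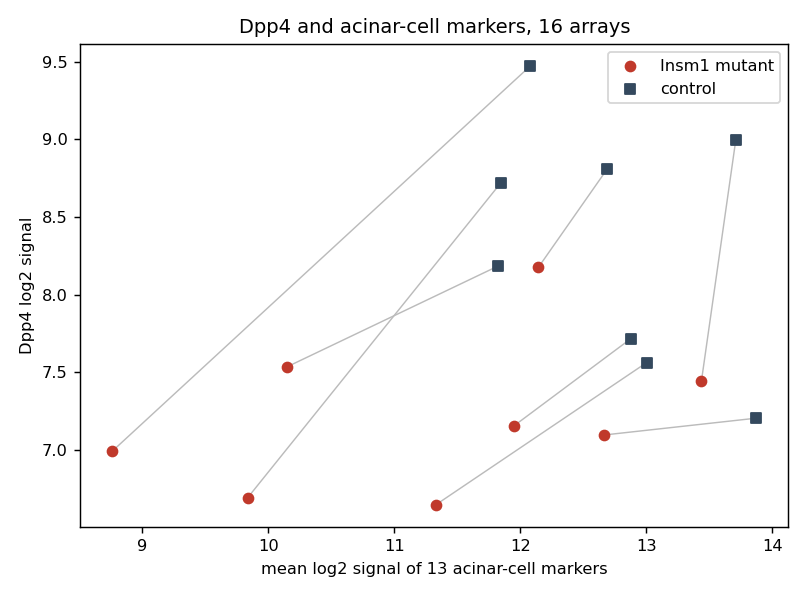
Dpp4 log2 signal against the mean log2 signal of 13 acinar-cell markers on each of the 16 arrays, mutants as red circles and controls as dark squares, with grey lines joining arrays of the same replicate number. Every line runs up and to the right towards the control, since Dpp4 and the marker mean each had the lower value in the mutant array of all 8 pairs.

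**Figure D3:**
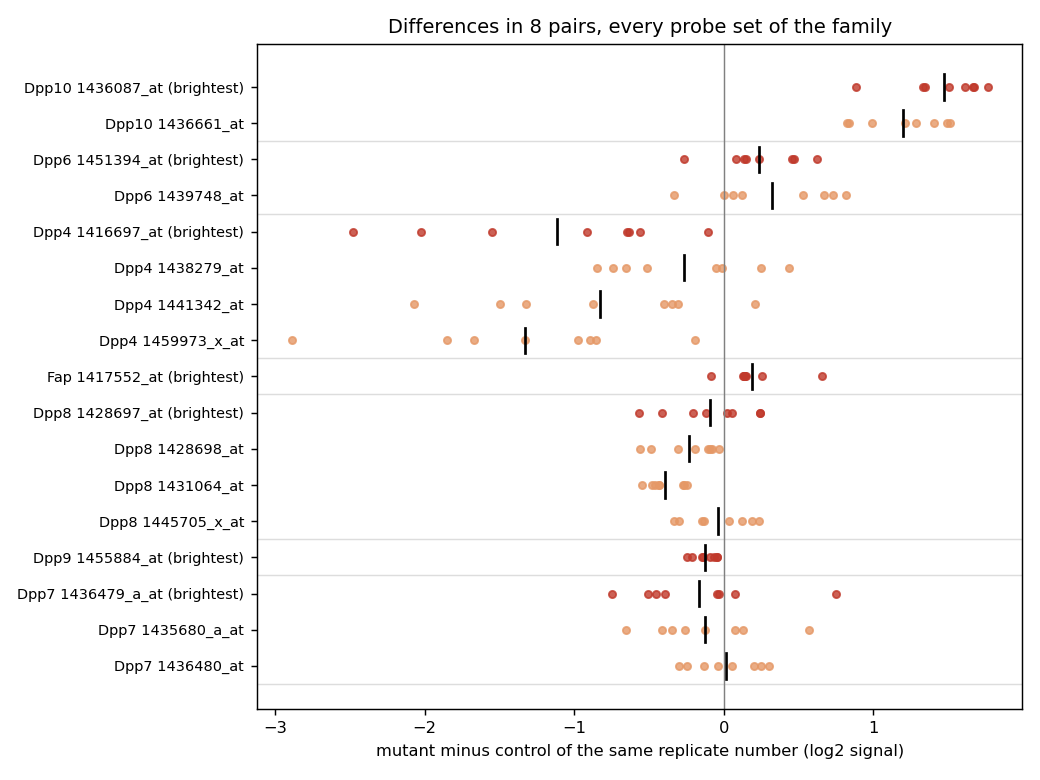
Difference between the mutant and the control array of the same replicate number for each of the 17 probe sets, with 8 points per probe set, dark red for the brightest of each gene and orange for the others, and a black line at the mean. Both Dpp10 probe sets lie right of 0 in all 8 pairs, Dpp4 spreads widest to the left, and the 4 Dpp8 probe sets differ in position.

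Fap, the closest relative of Dpp4 and a marker of activated fibroblasts, was dim and did not pass the test. In mutants it read 4.58, 4.77 and 5.32 (lowest, median, highest), against 4.45, 4.66 and 4.91 in controls. Its mean lay 1.53 below the lowest array median, and the groups overlapped with 2 of 8 mutant arrays above the highest control. The difference was 0.19 ± 0.10 (SE, adjusted p = 0.287), with the mutant higher in 7 of 8 pairs. Fap and the fibroblast marker mean had r = 0.63 and rho = 0.50 over 8 mutant arrays (exact permutation p = 0.0949 and 0.216) and r = 0.80 and rho = 0.62 over 8 control arrays (exact permutation p = 0.0199 and 0.115). Adjusted over the 140 relations of members with marker lists, the p for r was 0.945 in mutants and 0.558 in controls, and that for rho was 0.873 in both. Without the 2 arrays of each group farthest from the median fibroblast mean, mutant replicates 1 and 3 and control replicates 2 and 8, r was 0.35 in mutants and 0.00095 in controls, so the relation rests on those arrays. Over the control arrays Fap had a larger r with the acinar mean, 0.87 (exact permutation p = 0.0061, adjusted p = 0.398). That r was 0.73 without the 2 farthest arrays, and 0.40 over the mutant arrays (adjusted p = 0.983). With the beta-cell mean r was −0.72 in controls and −0.06 in mutants. In the RefSeq annotation of GRCm38.p6 Gcg, the glucagon gene, is the only protein-coding gene between Dpp4 and Fap. Its signal ran from 14.93 to 15.17 in mutants and from 14.76 to 15.08 in controls, near the top of the scale, and differed by 0.07 ± 0.05 (SE, limma, adjusted p = 0.465).

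For the cytosolic enzyme Dpp8 the answer depended on the probe set. The brightest read 7.75, 7.85 and 8.24 in mutants and 7.64, 7.94 and 8.37 in controls, and differed by −0.09 ± 0.10 (SE, limma, adjusted p = 0.663), with the mutant lower in 4 of 8 pairs. The next in brightness read 7.39, 7.72 and 7.85 in mutants and 7.66, 8.14 and 8.22 in controls. At this one the mutant was lower in 8 of 8 pairs and fell by 0.39 ± 0.08 (adjusted p = 0.00584 over all probe sets). The one below it in brightness, at 7.15 ± 0.12 (SD) in mutants and 7.39 ± 0.13 in controls, fell by 0.23 ± 0.07 (adjusted p = 0.0495), also in 8 of 8 pairs, and the dimmest, which has the suffix for possible cross-hybridisation, differed by −0.04 ± 0.09 (adjusted p = 0.861). Between the brightest and the one that fell by 0.23, the Pearson correlation was −0.80 over the mutant and −0.31 over the control arrays. The transcripts that each probe set covers are not stated in the labels or files, so no single direction is given for Dpp8. Of the 15 probe sets of the 6 members 4 were called, all lower, 2 each of Dpp4 and Dpp8, against 6.86% of all 34945 called and 3.62% called lower.

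Dpp9, the cytosolic partner of Dpp8 in restraining the Nlrp1 inflammasome, read 9.54, 9.68 and 9.94 (lowest, median, highest) in mutants and 9.68, 9.83 and 9.98 in controls. The groups overlapped, with 4 of 8 mutant arrays below the lowest control, but the mutant was lower in 8 of 8 pairs, as were 7.21% of all genes. The difference was small, −0.12 ± 0.06 (SE), and did not pass the test (limma, adjusted p = 0.269). With the replicate number as a block it did (adjusted p = 0.0495), where 2 of the 6 members, Dpp4 and Dpp9, were called, both lower, beside 17.6% of all genes called, 7.88% higher and 9.71% lower.

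Dpp7, the lysosomal and vesicular enzyme, did not pass the test. It read 9.09, 9.84 and 10.60 in mutants and 9.14, 9.95 and 10.72 in controls, and the groups overlapped over nearly their whole range. The difference was −0.17 ± 0.21 (SE, 95% interval −0.61 to 0.27, limma, adjusted p = 0.716). Its other bright probe set had a Pearson correlation with it of 0.96 over the mutant and 0.99 over the control arrays, and differed by −0.13 ± 0.18 (adjusted p = 0.765). Dpp7 and the immune marker mean had r = 0.55 and rho = 0.31 over 8 mutant arrays (exact permutation p = 0.159 and 0.462) and r = 0.57 and rho = 0.38 over 8 control arrays (exact permutation p = 0.189 and 0.36). Adjusted over the 140 relations, the p was 0.945 for r in both groups, 0.924 for rho in mutants and 0.916 for rho in controls. Without the 2 arrays farthest from the median immune mean, r was −0.06 in mutants and −0.60 in controls. Over the mutant arrays Dpp7 and Dpp4 had a Pearson correlation of 0.88, and over the control arrays 0.52, and these arrays share their RNA preparations.

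Across the 6 members other than Dpp10, differences ran from −1.12 to 0.24 with a median of −0.11, beside a median of −0.01 over all 18193 genes. Dpp4 was called in this set and the other 5 were not.

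Of the other proteins that form Kv4 channels with Dpp6 and Dpp10, Kcnip4 rose and the remaining 6 of 7 measured did not pass the test. Beside this, 8.76% of all genes were called, 4.1% higher. The 7 were the pore subunits Kcnd1, Kcnd2 and Kcnd3 and the calcium-binding KChIP subunits Kcnip1 to Kcnip4, and their median difference was 0.04. Kcnip4, a KChIP that slows channel inactivation, read 6.70, 7.15 and 8.16 in mutants and 5.93, 6.14 and 6.48 in controls. The groups did not overlap, and the difference was 1.01 ± 0.17 (SE, limma, adjusted p = 0.000974). Its other probe sets, slightly dimmer, rose by 2.22 ± 0.26 and 1.78 ± 0.21, and the size differed between probe sets. At all 3 the control mean, 6.16, 5.47 and 5.39 in the same order, lay below the lowest array median of 6.29, so these sizes are measured against dim signals. Kcnip4 was no longer called when the alpha-cell marker mean was included (0.74, adjusted p = 0.07) or the acinar mean under the replicate block (0.78, adjusted p = 0.11). The pore subunits Kcnd2 and Kcnd3 were dim, at 4.73 and 5.29 in mutants and 4.68 and 5.30 in controls, below the array medians, and Kcnd1 differed by −0.14 ± 0.08 (adjusted p = 0.376).

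Among 17 other peptidases measured, 1 rose, 2 fell and 14 were not called, with a median difference of −0.11, beside 8.76% of all genes called. The list was built around enzymes that act at proline or release short peptides, and some members, such as Enpep, do neither. With the replicate block 1 rose and 5 fell, beside 17.6% of all genes, and the falls added were Dpp3 (adjusted p = 0.0201), Xpnpep3 (adjusted p = 0.0215) and Ace (adjusted p = 0.0463). Prcp, the lysosomal prolylcarboxypeptidase and nearest relative of Dpp7, had the widest difference. It read 7.84, 8.19 and 8.57 in mutants and 6.12, 6.28 and 6.68 in controls, without overlap, and rose by 1.87 ± 0.11 (SE, limma, adjusted p = 3.85e-09), or 3.66-fold. Of its 3 other probe sets, the brightest rose by 1.73 ± 0.10, and the remaining pair was dim. Enpep, the surface glutamyl aminopeptidase, read 7.90, 8.31 and 8.74 in mutants and 9.36, 9.56 and 10.75 in controls, also without overlap, and fell by 1.35 ± 0.17 (adjusted p = 7.95e-05), or 2.56-fold. Prepl, a relative of prolyl endopeptidase, fell by 0.37 ± 0.10 (adjusted p = 0.0244), but not past the threshold without control replicate 4 (−0.34, adjusted p = 0.0513). Its other bright probe sets fell by 0.51 ± 0.10 and 0.35 ± 0.08 (limma, adjusted p = 0.00308 and 0.00877 over all probe sets). A dim one fell by 0.41 ± 0.13 (adjusted p = 0.061). Prep itself (−0.02 ± 0.06) and the angiotensin-converting enzyme gene Ace (−0.25 ± 0.09) were not called (adjusted p = 0.904 and 0.0926). With the block and both the acinar and immune means, where 18 genes of all were called, Prcp was the 1 related gene still called (2.28, adjusted p = 0.0439).

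Of the peptides that Dpp4 is known to cut, 1 of 17 measured rose and 0 fell, and of 12 receptors for them 2 fell and 0 rose (limma), beside 4.1% of all genes called higher and 4.66% called lower. At an unadjusted p under 0.05, 3 of the peptides were higher and 0 lower, and 0 of the receptors were higher and 3 lower, beside 9.67% of all genes higher and 11.8% lower at that threshold. The receptor gene Vipr1 was called lower with the replicate block (−0.28, adjusted p = 0.0264). The chemokine gene Ccl11, dim at 5.64 ± 0.32 (SD) in mutants and 5.11 ± 0.27 in controls, rose by 0.53 ± 0.14 (SE, limma, adjusted p = 0.0197). It missed the threshold when pairs 1 to 3 were left out (0.55, adjusted p = 0.0665) or the alpha-cell mean was included (0.52, adjusted p = 0.142). The peptide hormone genes Ppy and Pyy differed by 0.21 ± 0.07 and 0.33 ± 0.11 (adjusted p = 0.0971 and 0.0785), and both were called higher with the replicate block (adjusted p = 0.0372 and 0.00362). Gip was dim, at 5.22 in mutants and 5.23 in controls. The receptors of both incretins fell. Glp1r read 6.41, 6.82 and 7.21 in mutants and 7.21, 8.08 and 8.19 in controls, where the highest mutant and the lowest control array were level, and fell by 1.08 ± 0.15 (adjusted p = 0.000125). Gipr read 5.87, 6.16 and 6.27 in mutants and 6.29, 6.58 and 7.21 in controls and fell by 0.51 ± 0.11 (adjusted p = 0.00576). Gipr missed the threshold when pairs 1 to 3 were left out (−0.52, adjusted p = 0.0514) or the alpha-cell mean was included (−0.48, adjusted p = 0.0917).

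The Nlrp1 inflammasome, which Dpp8 and Dpp9 hold inactive, was followed through 5 measured genes, Pycard, Casp1, Gsdmd, Il1b and Il18. No gene for the Nlrp1 sensor itself was among them. None of the 5 passed the limma test with all arrays, beside 8.76% of all genes called. Of the 5, 0 had an unadjusted p under 0.05, beside 9.67% of all genes higher and 11.8% lower. Their median difference was 0.03. The lowest p was that of the protease gene Casp1, with 5.67 ± 1.02 (SD) in mutants and 5.40 ± 0.29 in controls (adjusted p = 0.723). Its difference was 0.27 with all arrays and varied in both directions with the setting. It was −0.34 without pairs 1 to 3 (adjusted p = 0.0375), which hold the arrays with high immune markers, and −0.11 with the immune marker mean (adjusted p = 0.607). It was 0.82 with the acinar mean (adjusted p = 0.12), 0.87 with the alpha-cell mean (adjusted p = 0.286) and 1.28 with the acinar mean under the replicate block (adjusted p = 0.0737), and 0.016 to 0.39 without any 1 array, lowest without mutant replicate 1.

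**Figure D4:**
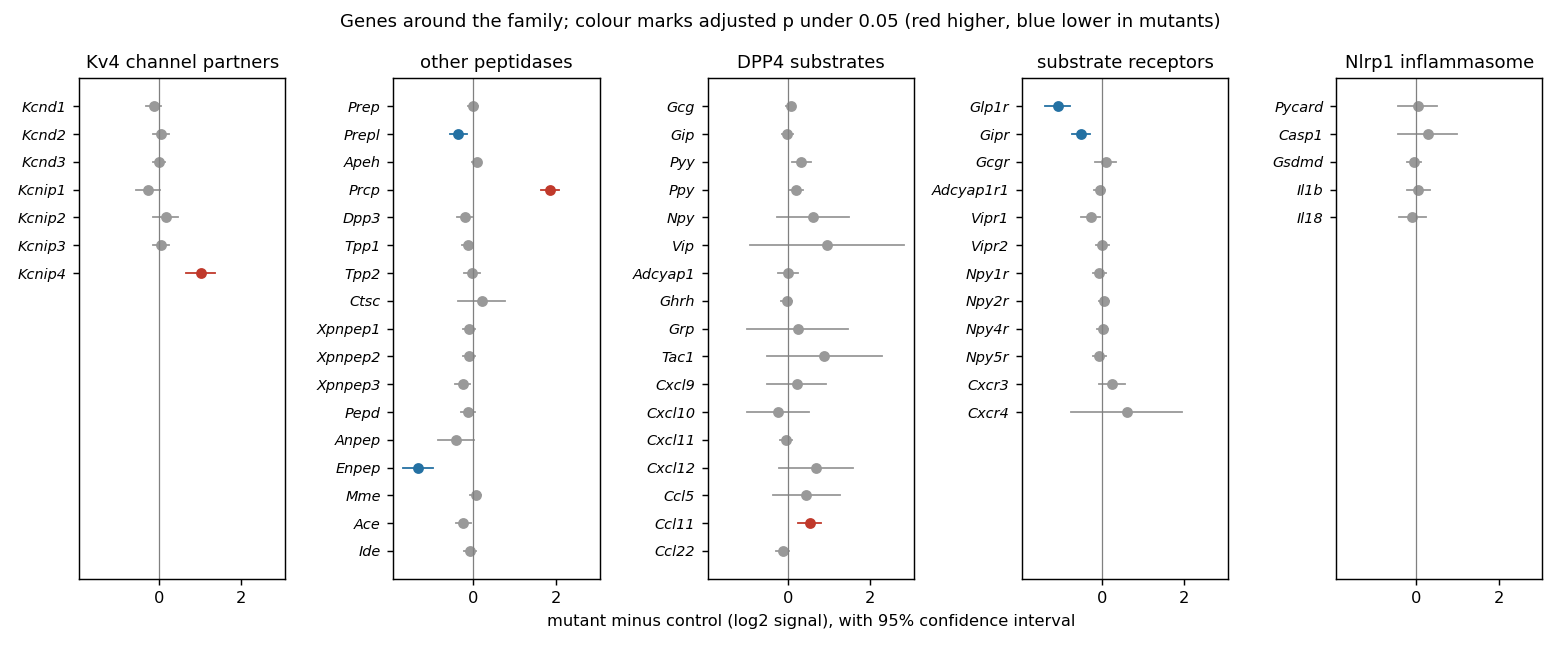
Difference between 8 mutant and 8 control arrays for each measured gene of the 5 related lists, as log2 signal with its 95% confidence interval, red for genes called higher, blue for genes called lower and grey for the rest. Most points sit near 0, and Prcp, Kcnip4, Enpep and Glp1r stand farthest out among the called genes.

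The genes whose signal followed Dpp10 most closely within the groups were Avl9, Ctxn2, Zfp217, Satb1 and Prkcb. Likeness was the lower of the Pearson correlations over the 8 mutant and over the 8 control arrays, among 9090 genes brighter than the median gene, and it is a description of arrays that share their RNA preparations. It ran from 0.65 for Prkcb, a protein kinase C gene, to 0.75 for Avl9, below the 0.83 between the 2 Dpp10 probe sets. The genes named were picked for having the highest likeness among the 9090 compared. With 8 arrays per group, such picking can by itself give values of this size, and whether it did was not tested. The differences of the named genes between the groups ran in both directions. Ctxn2 read 9.64 ± 0.41 (SD) in mutants and 8.59 ± 0.34 in controls and rose by 1.05 ± 0.17 (SE, limma, adjusted p = 0.00079), and the zinc finger gene Zfp217 rose by 0.49 ± 0.08 (adjusted p = 0.00128). Prkcb was lower, at 9.55 ± 0.34 in mutants and 10.30 ± 0.20 in controls, and fell by 0.76 ± 0.13 (adjusted p = 0.00108). Avl9 (−0.04 ± 0.07) and the chromatin organiser gene Satb1 (−0.24 ± 0.10) were not called (adjusted p = 0.813 and 0.143).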

How the data were processed

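Total islet RNA was biotinylated with a 3′ IVT Express kit, as the labels' protocols state, and hybridised to Affymetrix mouse arrays, 1 for each of 16 samples. Each probe set has 1 log2 signal in the table deposited by the authors, whose background correction, summarisation and normalisation are not given in the sources used here. Log base 2 was inferred from the range of values, whose array medians lie between 6.29 and 6.35. No missing values were present, and no further scaling was applied.

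Of 45101 probe sets, 64 controls were left out, 34945 named 1 gene, 932 several and 9160 none. Through gene identifiers, 34741 took their symbol from RefSeq. The fit used limma (version 3.58.1, R version 4.3.3, lmFit and eBayes with a trend, genotype only) on the 18193 genes, two-sided, with Benjamini-Hochberg adjustment over all of them; probe sets were also tested over all 34945. Calls needed an adjusted p below 0.05. Sample labels alone say that the 8 samples of a group are separate, and p-values measure the spread between them. On simulated data for this comparison, 81 of 100 genes changed 1.5-fold and 99 of 100 changed 3-fold were recovered among 18193.

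Same-numbered arrays deviated together in all 8 pairs (correlations of 0.24 to 0.73, median −0.10 between other numbers). Replicate numbers were therefore treated as pairs in the pair counts, the relations across pairs and the blocked fits. The main fit, its intervals and the fits with left-out arrays had no pairing term. Blocked values are given where they changed a call of a member or of a gene in the related lists. Genes named are the members, the called genes of each list (or its lowest p), Insm1 and the 5 genes most like Dpp10. Other listed genes were given as examples after their values were seen. Members, lists and alternatives were chosen with earlier results of these data known. Alternatives were other normalisations, filters, weights, probe set rules, marker covariates, the block and left-out arrays; the alpha-cell covariate, the block with both marker means and the relations across pairs were chosen after seeing the data. Listed genes without a probe set naming them alone were not analysed here.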

Additional observations from a re-analysis of the deposited data

Results flagged for a closer look

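A single array stood apart from the other 7 of its group in 6 of 52 groups of values checked by Dixon's test, where chance gives about 1 in 20. At the dimmer Dpp6 probe set, mutant replicate 7 read 6.24, with the next array at 6.88, a gap of 0.680 of the group's range. At the brightest Dpp8 probe set, mutant replicate 4 read 8.24 with the next at 7.94 (gap 0.612 of the range). At the next Dpp8 probe set, the one with the larger fall, control replicate 1 read 7.66 and the next 8.02 (gap 0.630 of the range). Among the related genes, Kcnip4 read 8.16 on mutant replicate 7 with the next at 7.37 (gap 0.543), Enpep 10.75 on control replicate 3 with the next at 9.79 (gap 0.687), and Casp1 6.06 on control replicate 1 with the next at 5.41 (gap 0.608).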

How the results depend on the processing

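Over the 29 alternatives, the differences of Dpp10, Dpp6 and Dpp4 kept their direction. Dpp10 stayed within 1 SD of its value, while Dpp4 ran from −1.33 to −0.23. All genes called numbered 1594, and 3200 with the replicate block, 679 with the block and the acinar mean, 828 without pairs 1 to 3, 877 with the alpha-cell mean, 18 with the block and both the acinar and immune means, and 2398 with every probe set tested. Leaving out 1 array gave 1324 to 1645. The counts given next are those that moved by over 1.5 times; smaller moves, such as 4 in place of 3, are not listed. Of the 6 members other than Dpp10, 1 was called. This was 2 with the block and with every probe set tested, and 0 with the mean of probe sets, the acinar mean, the alpha-cell mean, the block and the acinar mean, and the block with both means; leaving out 1 array gave 0 to 1. Kv4 partners called were 1, but 2 with the acinar mean and 0 with the alpha-cell mean and with the block and 1 or both means; 1 without any single array. Substrates and receptors called were 3, but 6 with the block, 1 without pairs 1 to 3 and 0 with the block and both means, and 3 to 4 without 1 array. Other peptidases called were 3, but 6 with the block or the acinar mean, 1 with the block and both means, and 2 to 3 without 1 array. Inflammasome genes called were 0, but 1 without pairs 1 to 3, and 0 without 1 array. Signs turned with the block and both means for Fap (−0.11), Dpp8 (0.0084), Dpp9 (0.0023) and Insm1 (0.11), with the block and the acinar mean for Dpp8 (0.20) and Dpp7 (0.046), with the alpha-cell mean for Dpp7 (0.094), without pairs 1 to 3 for Insm1 (0.041) and Casp1 (−0.34), and with the immune mean for Casp1 (−0.11). The cause of these changes was not tested. The blocked fit changed no call of a member beside those given. Filtering dim genes leaves Fap out.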
